A study of Mus musculus with 6 samples.

Results

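The collagen genes were taken as every row of the expression table whose symbol is Col, a number, the letter a and a number, which gave 44 of the 19241 genes listed. Of these, 11 encode fibrillar collagens, 6 encode chains of the basement membrane collagen type IV and 27 encode other collagens. RNA of the whole interscapular brown fat depot was sequenced in bulk from newborn mice. The 3 control libraries (WT) came from mice with a floxed Fstl1 gene, and the 3 KO libraries from mice labelled Myf5-Fstl1 KO, in which Fstl1, a secreted glycoprotein of the SPARC family, was removed in cells of the Myf5 lineage. Cells of the Myf5 lineage become skeletal muscle and many of the brown adipocytes. The design does not target cells outside this lineage, and which cells of the depot lost Fstl1 was not measured here. The labels name no Cre line, no age in days and no sex, and they do not say whether each library is 1 animal.

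Collagens are trimers of chains wound around each other along repeats of glycine and 2 further residues. Fibrillar collagens (types I, II, III, V, XI, XXIV and XXVII) assemble into the banded fibrils that give connective tissue its tensile strength. Types I, III and V are made largely by fibroblasts. Type II is made by cartilage cells, and types XI and XXVII are also expressed in cartilage. Type IV chains form the sheet-like network of basement membranes, which surrounds blood vessels and every adipocyte. The remaining collagens decorate fibrils, link them to basement membranes, form beaded microfilaments or span the cell membrane.

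No collagen gene differed between KO and WT by the test used. Values are FPKM, fragments counted per transcript length and library size, so that levels can be compared between genes of a library. Of the 44 genes, 27 had a mean of at least 0.5 FPKM and entered a limma fit of log2(FPKM + 1) with 13331 genes in all. At an adjusted p under 0.05, 0 of the 27 passed, where 2.21% of all genes tested did, 1.01% lower and 1.21% higher in KO. The fitted difference was above 0 for 16 collagens (59.3%) and below 0 for 11, where 51.6% of all genes tested lay above 0. The lowest adjusted p of a collagen was 0.216 (limma, Col28a1). At an unadjusted p under 0.05 there were 3 collagens, 11.1% of the 27, against 19.2% of all genes tested, and 6 collagens (22.2%) had no overlap between the values of both groups, against 24.9% of all genes tested. Both shares lay at or below the background. For 26 of the 27 genes the 95% interval of the difference lay within a 2-fold change either way on the FPKM + 1 scale, and the exception was Col27a1. The same held for 11668 of the 13331 genes tested. For low genes the added 1 narrows these intervals: Col7a1, at 45.8% of the WT mean in KO, had a log2 difference of −0.37 on this scale and of −1.12 with 0.01 added.

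Several facts of the whole series bear on these values. Fstl1 was at 55.5, 130.04 and 54.4 FPKM in WT (replicates in order), against 7.93, 13.1 and 8.77 FPKM in KO, with no overlap (limma, log2 difference −2.79, SE 0.33, adjusted p 0.00979; exact two-sided permutation test, p 0.1, the smallest that 3 against 3 can give). Xist lay between 44.8 and 85.5 FPKM in WT and between 0.05 and 0.92 FPKM in KO, and the Y-linked Ddx3y between 0 and 0.23 FPKM in WT and between 59.5 and 60.8 FPKM in KO, so sex coincided with genotype and their effects on the collagens cannot be told apart. Depth was estimated at 13800000 to 15200000 reads a library. Of the brown adipocyte markers Ucp1, Cidea, Adipoq, Plin1, Ppargc1a, Pparg and Fabp4, summed per library, WT held 20979 to 26468 FPKM and KO 20147 to 22012 FPKM, a sum made up mostly of Fabp4. Within it Plin1, the coat protein of lipid droplets, fell from 174, 309 and 254 FPKM in WT to 106, 76.6 and 96.9 FPKM in KO (limma, log2 difference −1.36, SE 0.22, adjusted p 0.0267), and the thermogenic Ucp1 had 4366, 6124 and 6255 FPKM in WT, against 2902, 1695 and 3592 FPKM for KO, without overlap (limma, −1.08, SE 0.28, adjusted p 0.0804). Of the 7 brown adipocyte markers 3 had a fitted difference below 0 and 4 above. Those above were Ppargc1a, Adipoq, Pparg and Cidea (limma, log2 differences 0.52, 0.24, 0.20 and 0.13), and none of them passed. The 7 skeletal muscle markers summed to 246 FPKM in KO replicate 1 and to 1027 to 1493 FPKM in the other 5 libraries.

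The upstream sequences of 4 members are shown because the results return to these genes: Col3a1 was the most abundant collagen, Col5a1 is a further fibrillar chain that was highest in the same libraries, and Col5a3 and Col7a1 were among the 3 with the smallest p-values. They come from RefSeq (GRCm38.p6, the assembly that the processing notes call mm10), end at or before the annotated start site, and leave out any transcribed base. Capitals mark 3 promoter words searched on both strands: the TATA box word TATAAA, the CCAAT box word, and the GC box word GGGCGG.
Col3a1, chr1:45311288-45311537, plus strand: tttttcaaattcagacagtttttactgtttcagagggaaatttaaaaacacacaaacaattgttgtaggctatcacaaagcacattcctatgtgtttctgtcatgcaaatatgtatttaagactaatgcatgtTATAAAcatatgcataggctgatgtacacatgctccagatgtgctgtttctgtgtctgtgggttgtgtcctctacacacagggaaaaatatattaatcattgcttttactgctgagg
Col5a1, chr2:27886175-27886380, plus strand: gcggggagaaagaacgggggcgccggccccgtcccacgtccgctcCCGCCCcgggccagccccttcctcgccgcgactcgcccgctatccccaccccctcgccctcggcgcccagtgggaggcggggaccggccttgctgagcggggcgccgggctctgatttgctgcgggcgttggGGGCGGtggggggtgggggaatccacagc
Col5a3, chr9:20815118-20815317, minus strand: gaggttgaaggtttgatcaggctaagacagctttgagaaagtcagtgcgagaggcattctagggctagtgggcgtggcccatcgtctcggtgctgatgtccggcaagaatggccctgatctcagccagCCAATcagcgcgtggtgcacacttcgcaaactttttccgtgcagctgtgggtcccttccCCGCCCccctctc
Col7a1, chr9:108953336-108953585, plus strand: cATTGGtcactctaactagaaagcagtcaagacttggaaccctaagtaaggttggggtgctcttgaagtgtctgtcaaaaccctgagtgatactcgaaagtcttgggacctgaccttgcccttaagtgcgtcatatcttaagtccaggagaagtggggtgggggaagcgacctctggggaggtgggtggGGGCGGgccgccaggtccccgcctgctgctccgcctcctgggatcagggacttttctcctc
The Col3a1 stretch is AT-rich, with a GC content of 35.2% over the 250 bases before its start site, and holds TATAAA 117 bases before it and neither of the other words. Col5a1 has a GC content of 76.4% over its whole window of 250 bases, of which 206 are shown, and GGGCGG on both strands with no TATAAA or CCAAT. Col5a3 and Col7a1 each hold CCAAT and GGGCGG and no TATAAA. The promoter table matched 35 of the 44 members with 38 windows, as Col6a2, Col9a1 and Col18a1 entered with more than a single window. Words were counted in whole windows of 250 bases, which hold transcribed bases for some genes, unlike the stretches shown. GGGCGG was in 22 of the 38 (57.9%) against 32.7% of all 32851 windows in the table, CCAAT in 13 (34.2%) against 33.8%, and TATAAA in 5 (13.2%) against 12.4%. CCAAT and TATAAA were thus as frequent as elsewhere, and the collagen windows had a median GC content of 59% against 52.4%. A match is a description of letters, not of a bound site.

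A few chains made up most of the collagen RNA. The summed FPKM of all 44 genes was 2130, 2681 and 2130 in WT replicates 1 to 3 and 2123, 3017 and 2520 in KO replicates 1 to 3, which was 0.382% to 0.517% of a WT library's summed FPKM and 0.423% to 0.577% of a KO library's. The groups overlapped in both measures. Col3a1, Col1a1, Col4a1, Col1a2 and Col4a2, in order of mean level, held 78.2% ± 0.881 (SD, n = 3) of the collagen sum in WT and 79.6% ± 2.57 in KO. Their ranks among all 19241 genes ran from 133 for Col3a1 to 428 for Col4a2. Below them came the type VI chains Col6a1 and Col6a2, then Col5a2, Col5a1, Col6a3 and Col15a1, with means over the 6 libraries from 135 FPKM (Col6a1) down to 33.03 FPKM (Col15a1). Neighbours in this order could be close: Col1a1 and Col4a1 had means of 408 and 368 FPKM and changed order between libraries. Col5a2 and Col5a1, with means of 50.6 and 45.5 FPKM, kept their order in all 6 libraries.

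**Figure D1:**
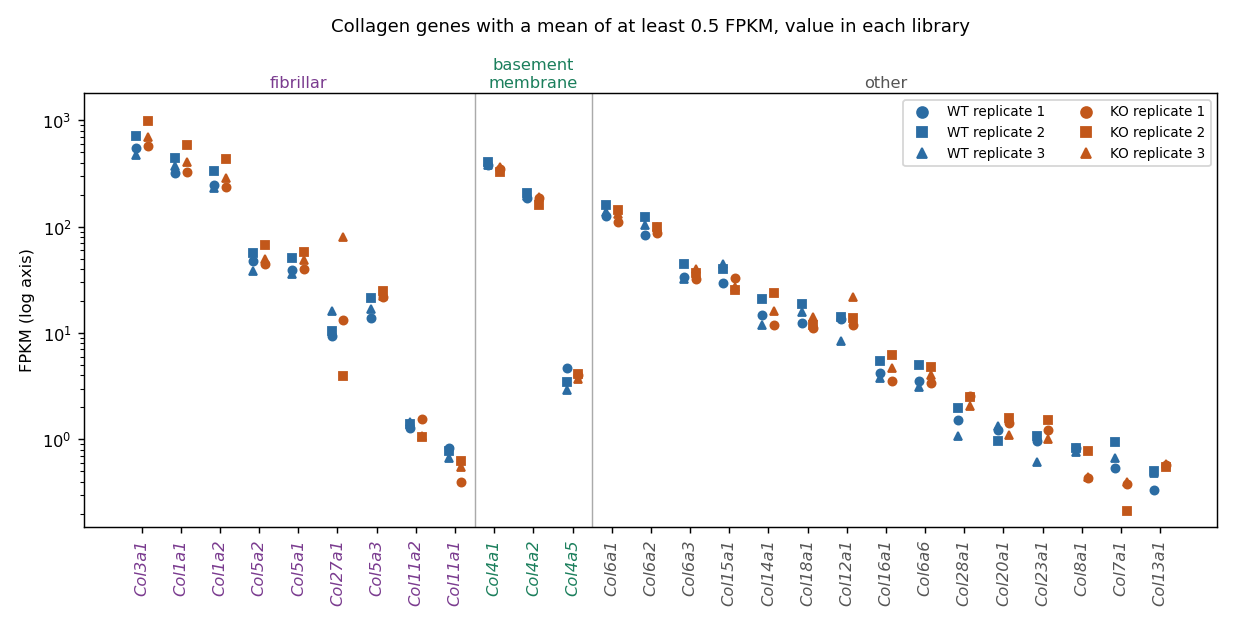
FPKM on a log axis for the 27 collagen genes averaging 0.5 FPKM or more, grouped by class and ordered by mean, with 1 point per library (WT blue, KO orange). The groups overlap in most genes, and Col27a1 of KO replicate 3, at 79.7 FPKM, stands apart from the other 5 libraries.

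Fibrillar collagens were the most abundant class, at 55.6% to 60.4% of the collagen sum in WT and 59.6% to 71.3% in KO, with overlap. Their sum was 1234, 1619 and 1186 FPKM in WT and 1265, 2151 and 1593 FPKM in KO. The means were 1346 ± 238 FPKM and 1670 ± 448 FPKM (SD, n = 3 each), so KO stood at 1.24 times WT, a difference smaller than the SD of the KO libraries. On the log2 scale the ratio was 0.31, and 0.09 without KO replicate 2. Of the 11 genes, 9 were tested, 7 with a fitted difference above 0 and 2 below, and 0 passed. Their median log2 difference was 0.21, against 0.01 for all genes tested, and −0.01 without KO replicate 2.

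Col3a1 (Entrez gene 12825, chromosome 1, 45311538 to 45349706), the single chain of type III collagen, which is prominent in soft and growing tissues, was at 555, 707 and 473 FPKM in WT, against 576, 983 and 697 FPKM for KO. The lowest 2 KO libraries lay within the WT range and KO replicate 2 above it. The log2 difference was 0.36 (limma, SE 0.22, 95% interval −0.15 to 0.87, adjusted p 0.418), and it was 0.15 without KO replicate 2 and 0.23 without WT replicate 3 (limma, adjusted p 0.769 and 0.696). Col1a1 (12842, chromosome 11, 94936224 to 94953042), the chain present in 2 copies in the type I trimer of most connective tissue, was at 318, 440 and 372 FPKM in WT, against 330, 584 and 404 FPKM for KO. Only KO replicate 2 lay above the WT range, and the log2 difference was 0.19 (limma, SE 0.22, 95% interval −0.31 to 0.69, adjusted p 0.679). Col1a2 (12843, chromosome 6, 4505618 to 4541543), its partner chain, was at 249, 332 and 230 FPKM in WT, against 237, 429 and 290 FPKM for KO, again with only KO replicate 2 above the WT range (limma, log2 difference 0.21, SE 0.23, 95% interval −0.32 to 0.74, adjusted p 0.667). Without KO replicate 2 the log2 differences of Col1a1 and Col1a2 were −0.03 each (limma, adjusted p 0.956 and 0.966).

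The chains of type V collagen, which lie inside type I fibrils and limit their width, were the next fibrillar members. Col5a1 (12831) was at 38.8, 50.8 and 36.1 FPKM in WT, against 40.4, 57.9 and 48.9 FPKM for KO, and Col5a2 (12832) at 48.0, 56.5 and 38.5 FPKM in WT, against 44.2, 67.1 and 49.3 FPKM for KO. In both, the groups overlapped and KO replicate 2 was the highest of all libraries (limma, adjusted p 0.549 and 0.711). Col5a3 (53867, chromosome 9, 20770050 to 20815117), the third chain, found in fewer tissues, was at 13.9, 21.1 and 16.9 FPKM in WT, against 21.6, 24.9 and 22.4 FPKM for KO. Each KO library lay above each WT library, and the log2 difference of 0.40 did not pass (limma, SE 0.17, 95% interval 0.02 to 0.79, unadjusted p 0.0431, adjusted p 0.244). The type XI chains, minor fibril components best known from cartilage, were low. Col11a1 was at 0.83, 0.77 and 0.66 FPKM in WT, against 0.4, 0.63 and 0.55 FPKM for KO, lower in each KO library (limma, log2 difference −0.20, SE 0.14, 95% interval −0.52 to 0.12, adjusted p 0.475). Col11a2 lay between 1.04 and 1.56 FPKM in all 6 libraries. The type II collagen gene Col2a1 was at or below 0.11 FPKM, and the cartilage markers measured, Acan, Sox9, Matn3, Hapln1, Lect1 and Comp, summed to 1.08 to 1.48 FPKM in WT and 1.06 to 1.43 FPKM in KO, with Matn3 at 0 in all libraries but KO replicate 3 and Comp at 0 in KO replicate 3.

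Col27a1 (373864, chromosome 4, 63214009 to 63334991), a fibrillar collagen that is strongly expressed in cartilage, had the widest spread of all members tested and is described here because of its values. It was at 9.36, 10.4 and 16.1 FPKM in WT, against 13.3, 3.96 and 79.7 FPKM for KO. KO replicate 2 was below and KO replicate 3 above every other library, the latter 4.96-fold above the next. The log2 difference was 0.50, with a 95% interval from −1.33 to 2.34 (limma, SE 0.81, adjusted p 0.785), and −0.59 without KO replicate 3 (limma, adjusted p 0.547). A value at least 4-fold above the highest of the other 5 libraries was seen for 12 of 13331 genes in KO replicate 3 and for 2 to 7 genes in each of the other libraries, and Col27a1 was the only collagen among them.

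**Figure D2:**
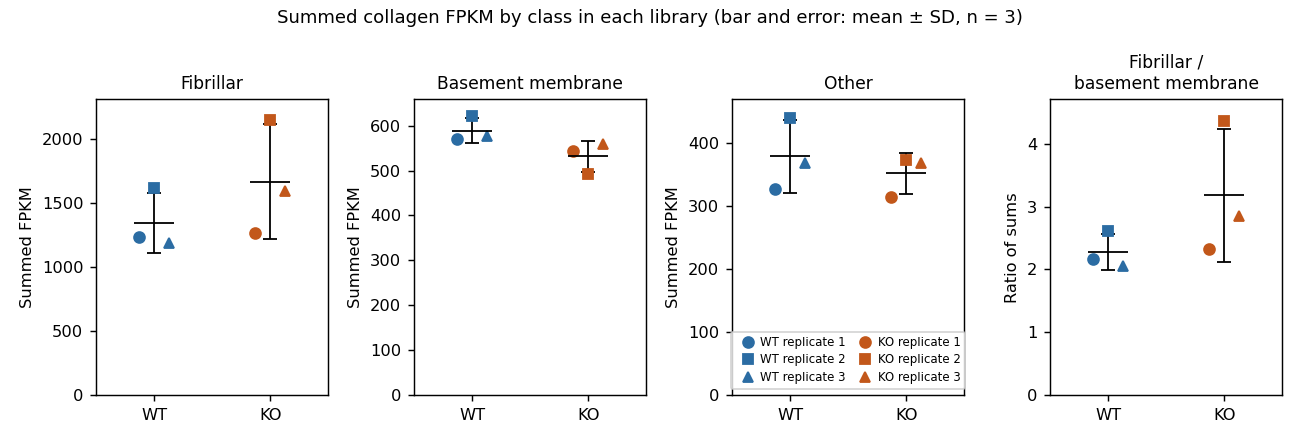
Summed FPKM of fibrillar (11 genes), basement membrane (6) and other (27) collagens in each library, and the ratio of fibrillar to basement membrane sum, with the mean and SD of each group. KO replicate 2 has the highest fibrillar sum, 2151 FPKM, the lowest basement membrane sum, 493 FPKM, and the highest ratio, 4.36.

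Most fibrillar chains were highest in the same libraries. KO replicate 2 was the highest KO library in 7 of the 9 fibrillar genes tested, against 42.04% of all genes tested, and WT replicate 2 the highest WT library in 6 of the 9, against 33.2%. WT replicate 2 was also the highest WT library in 12 of the 15 other collagens tested, so this was not particular to fibrillar chains. KO replicate 2 was the highest KO library in 7 of those 15. The fibrillar exceptions among the KO libraries were Col27a1 and Col11a2. Fibroblast markers were highest there too: Pdgfra, Dpt, Dcn, Lum, Pi16, Cd34, Mfap5 and Fbn1 summed to 667 FPKM in KO replicate 2 and to 399 and 423 FPKM in KO replicates 1 and 3, and to 464 FPKM in WT replicate 2 and 357 and 364 FPKM in WT replicates 1 and 3. Of these 8 markers 7 were highest in replicate 2 within each group, and 0 passed the test. Their part in the fibrillar values was not tested. In bulk RNA, fewer cells of a type and less RNA per cell cannot be told apart.

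For the basement membrane sum, all 3 KO libraries lay below the WT range. It was 569, 621 and 576 FPKM in WT and 544, 493 and 559 FPKM in KO, with means of 589 ± 27.9 FPKM and 532 ± 34.6 FPKM (SD, n = 3 each), so KO held 0.904 of the WT mean. As a share of the library's summed FPKM the groups overlapped, at 0.103% to 0.12% in WT and 0.0942% to 0.111% in KO. Col4a1 and Col4a2, the ubiquitous chains that form the basement membrane network in a 2 to 1 trimer, made up 99.1% to 99.5% of the sum in every library. Of the 6 genes 3 were tested, with a median log2 difference of −0.14, 1 above and 2 below 0, and 0 passed.

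Col4a1 (12826, chromosome 8, 11198423 to 11312889) was at 377, 409 and 378 FPKM in WT, against 352, 328 and 366 FPKM for KO. The KO libraries lay below the WT libraries without overlap, and the log2 difference was −0.15 (limma, SE 0.13, 95% interval −0.44 to 0.14, adjusted p 0.551). Col4a2 (12827, chromosome 8, 11312805 to 11449287) was at 187, 208 and 195 FPKM in WT, against 187, 161 and 189 FPKM for KO, with overlap (limma, log2 difference −0.14, SE 0.13, 95% interval −0.44 to 0.17, adjusted p 0.614). Their intervals correspond to 0.735 to 1.10 and 0.735 to 1.12 times the WT level on the FPKM + 1 scale, the narrowest among the 5 most abundant collagens. Col4a5 (12830, X chromosome), a chain of kidney, lung and several other basement membranes, was at 4.71, 3.45 and 2.91 FPKM in WT, against 4.06, 4.1 and 3.66 FPKM for KO, all 3 within the WT range (limma, log2 difference 0.09, SE 0.17, adjusted p 0.821). Col4a3, Col4a4 and Col4a6 did not exceed 0.18 FPKM in any library.

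Cells of blood vessels, which basement membranes surround, were described by their markers. The 7 endothelial markers Pecam1, Cdh5, Kdr, Tek, Emcn, Tie1 and Cldn5 summed to 491 to 650 FPKM in WT and 507 to 561 FPKM in KO, with 0 called. The 7 mural cell markers Pdgfrb, Rgs5, Cspg4, Acta2, Myh11, Tagln and Cnn1 summed to 113 to 144 FPKM in WT and 93.5 to 107 FPKM in KO without overlap. All 7 had a fitted difference below 0, where 51.6% of all genes tested lay above 0. Only Cspg4, the pericyte proteoglycan NG2, passed, where 2.21% of all genes tested did. It fell from 4.64, 6.62 and 6.71 FPKM in WT to 3.36, 1.62 and 1.45 FPKM in KO (limma, log2 difference −1.19, SE 0.24, adjusted p 0.0435). The part of these cells in the type IV values was not tested.

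The type IV genes lie in pairs that run away from each other. The RefSeq spans of Col4a1 and Col4a2 share 85 bases and those of Col4a4 and Col4a3, on chromosome 1, share 114 bases, while Col4a6 and Col4a5 are 1274 bases apart. By the start sites of the promoter table the first exons of Col4a1 and Col4a2 share 22 bases, shown because reads from this overlap could count for either gene if strand was not used, and strand handling is not given in the sources used here.
Col4a1 and Col4a2, chr8:11312805-11312826, plus strand: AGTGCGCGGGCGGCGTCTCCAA
The levels of a pair could be alike or far apart. Col4a1 stood at 1.88 to 2.04 times Col4a2 in all 6 libraries, while Col4a5 was at 2.91 to 4.71 FPKM and its neighbour Col4a6 at or below 0.04 FPKM.

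In the 4 pairs measured, the ratio of partner chains varied less than the level of either chain. The ratio of Col4a1 to Col4a2 was 2.01, 1.96 and 1.94 in WT and 1.88, 2.04 and 1.94 in KO, a range of 1.09-fold. Col4a1 itself varied 1.25-fold and Col4a2 1.30-fold. The ratio of Col1a1 to Col1a2 was 1.28, 1.32 and 1.62 in WT and 1.39, 1.36 and 1.39 in KO, a range of 1.27-fold, where Col1a1 itself varied 1.84-fold and Col1a2 1.86-fold. WT replicate 3 was the highest and the other 5 libraries lay between 1.28 and 1.39. The ratio of Col6a1 to Col6a2 ran from 1.27 to 1.5 and that of Col5a1 to Col5a2 from 0.809 to 0.992, and KO and WT overlapped in all 4 ratios. Chains of a pair share libraries and cells, so these ratios describe the libraries and carry no test. For Col4a5 with Col4a6 and Col8a1 with Col8a2 no ratio was formed because 1 chain had a mean below 0.5 FPKM.

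**Figure D3:**
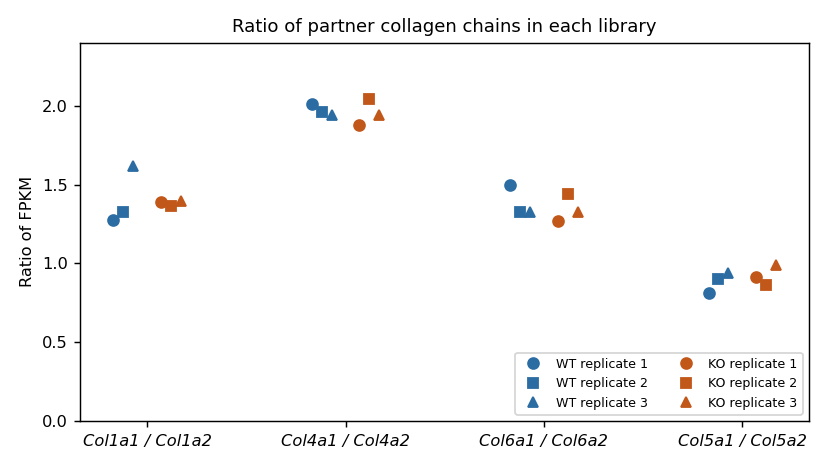
Ratio of the FPKM of partner chains in each library, with WT in blue and KO in orange. WT and KO overlap in each of the 4 pairs, and Col4a1 to Col4a2 varies least, between 1.88 and 2.04.

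The other 27 collagens summed to 327, 441 and 369 FPKM in WT and 315, 373 and 368 FPKM in KO, with overlap, and of the 15 tested 8 had a fitted difference above 0, 7 below, and 0 passed. Their median log2 difference was 0.06. Their share of the collagen sum was 15.4% to 17.3% in WT and 12.4% to 14.8% in KO, without overlap. By its definition this share also depends on the fibrillar sum, which was highest in KO replicate 2. In KO replicate 1 the share was 14.8% and the fibrillar sum, 1265 FPKM, lay within the WT range. What underlies the share was not tested.

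Most of this class was type VI, which forms beaded filaments next to cells, including adipocytes. Col6a1 (12833, chromosome 10) was at 125, 161 and 138 FPKM in WT, against 112, 143 and 133 FPKM for KO (limma, log2 difference −0.13, SE 0.16, 95% interval −0.49 to 0.22, adjusted p 0.696). Col6a2 (12834), which lies 85.2 kb from it on the same strand, was at 83.3, 122 and 104 FPKM in WT, against 87.9, 99.1 and 100.2 FPKM for KO (limma, adjusted p 0.811). Col6a3 (12835), the chain from which the fragment endotrophin is cut, was at 33.9, 44.7 and 32.3 FPKM in WT, against 32.5, 36.5 and 39.9 FPKM for KO (limma, adjusted p 0.971). In all 3 the groups overlapped and WT replicate 2 was the highest of the 6 libraries. Col6a6 was at 3.11 to 5.02 FPKM, and Col6a4 and Col6a5, which lie beside it on chromosome 9, did not exceed 0.1 FPKM.

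The multiplexins Col15a1 and Col18a1 sit in the basement membrane zone, and the second is the source of endostatin. Col15a1 (12819, chromosome 4, 47207655 to 47313167) was at 29.2, 39.6 and 44.5 FPKM in WT, against 32.6, 25.3 and 26.97 FPKM for KO. Only KO replicate 1 lay within the WT range, and the log2 difference was −0.39 (limma, SE 0.18, 95% interval −0.81 to 0.03, adjusted p 0.289). Col18a1 (12822) was at 12.5, 18.7 and 15.9 FPKM in WT, against 11.2, 11.9 and 14.04 FPKM for KO, with overlap (limma, log2 difference −0.31, SE 0.18, 95% interval −0.71 to 0.09, adjusted p 0.378). Of the 7 mural markers given above, Rgs5, Acta2 and Cspg4 had groups that did not overlap and the other 4 overlapped. Over all genes tested, 24.9% had groups that did not overlap. Of the 7 endothelial markers, 4 had a fitted difference below 0 and 3 above, and 0 had groups that did not overlap. The part of both cell types in these values was not tested.

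Collagens that bind to fibril surfaces (FACIT collagens) had fitted differences of 0.08 to 0.36 in the 4 genes tested, and 0 passed. Col12a1, found in dense connective tissue and tendon, was at 13.6, 14.02 and 8.37 FPKM in WT, against 11.97, 14.0 and 21.6 FPKM for KO, where only KO replicate 3 lay above the WT range (limma, log2 difference 0.36, adjusted p 0.468). Col14a1, often used as a marker of fibroblasts, was at 14.9, 20.8 and 11.8 FPKM in WT, against 12.01, 23.8 and 16.1 FPKM for KO, highest in replicate 2 of each group as the type I and III chains were (limma, adjusted p 0.873). Col16a1 lay between 3.53 and 6.27 FPKM with the same highest libraries. Col20a1 lay between 0.97 and 1.58 FPKM.

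The smallest p-values of the class belonged to low genes. Col28a1 (213945, chromosome 6, 7997100 to 8193709), a collagen described mainly in peripheral nerve, was at 1.51, 1.96 and 1.08 FPKM in WT, against 2.58, 2.48 and 2.06 FPKM for KO. Each KO library was higher than each WT library, and the log2 difference was 0.43 (limma, SE 0.17, 95% interval 0.05 to 0.82, unadjusted p 0.0325, adjusted p 0.216). Col7a1 (12836, chromosome 9, 108953586 to 108984875), which forms the fibrils that anchor epidermis to dermis, was at 0.54, 0.95 and 0.67 FPKM in WT, against 0.38, 0.21 and 0.4 FPKM for KO, lower in each KO library (limma, log2 difference −0.37, SE 0.15, 95% interval −0.72 to −0.02, unadjusted p 0.0417, adjusted p 0.241). With pseudocounts of 0.1 and 0.01 the difference was −0.93 and −1.12 (limma, adjusted p 0.258 and 0.256). Its values rest on an estimated 28.8 to 132 reads per library. Of the epidermal markers, Krt5, Krt14 and Krt1 were at 0 in all 3 WT libraries and at or below 0.27 FPKM in KO, and Krt10, Trp63 and these 3 summed to 2.49 to 3.33 FPKM in WT and 2.06 to 2.46 FPKM in KO. Both Trp63 and Krt10 were lower in each KO library without passing, where 11.4% of all genes tested were lower in KO without overlap. The other 3 went the other way, close to 0 FPKM: Krt1 and Krt5 were above 0 in each KO library and Krt14 in KO replicate 3 only. The part of epidermal cells in the Col7a1 values was not tested. Among the membrane-spanning collagens, Col13a1 lay at 0.33 to 0.5 FPKM in WT and 0.55 to 0.58 FPKM in KO without overlap (limma, log2 difference 0.13, adjusted p 0.657), and Col23a1 overlapped. Col8a1, a short-chain collagen of vessel walls, was at 0.82, 0.82 and 0.76 FPKM in WT, against 0.43, 0.77 and 0.44 FPKM for KO (limma, log2 difference −0.23, adjusted p 0.445).

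**Figure D4:**
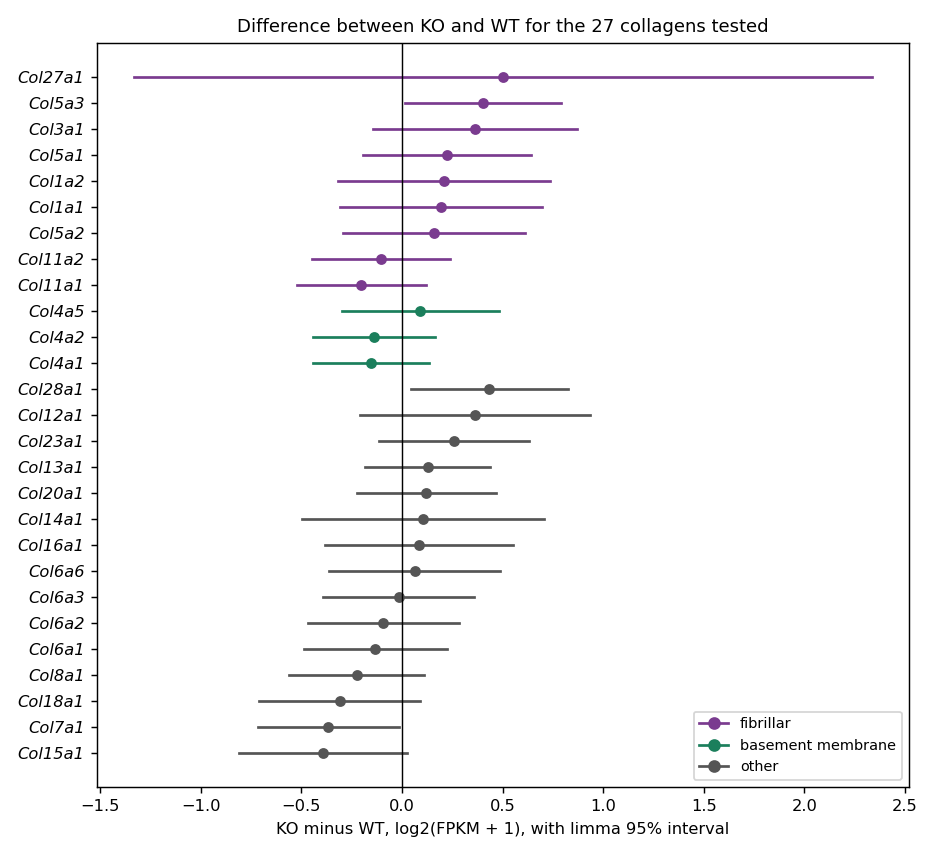
Difference between KO and WT in log2(FPKM + 1) for the 27 collagens tested, with limma's 95% interval, coloured by class. The intervals of Col5a3, Col28a1 and Col7a1 leave out 0 before adjustment, none of the 27 passes after it, and Col27a1 has the widest interval, −1.33 to 2.34.

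The 6 collagens without overlap were Col5a3, Col28a1 and Col13a1, higher in KO, and Col4a1, Col11a1 and Col7a1, lower in KO. They came from all 3 classes, 3 in each direction (11.1% each), where 11.4% of all genes tested were lower and 13.6% higher in KO without overlap. The 17 collagens below the 0.5 FPKM filter had means between 0.0217 and 0.323 FPKM, and 4 of them (Col2a1, Col4a6, Col6a4 and Col22a1) were at 0 in at least 1 library. They include the cartilage chains Col9a1, Col9a2, Col9a3 and Col10a1 and the epidermal Col17a1. Only Col10a1, the collagen of hypertrophic cartilage, had groups that did not overlap, at 0.31, 0.78 and 0.33 FPKM in WT and 0.12, 0.09 and 0.2 FPKM in KO, which is an estimated 4.16 to 36.5 reads per library. They entered no test in the fit reported here. Without the filter all 44 collagens were fitted, and 0 passed (limma, with 4 at an unadjusted p under 0.05). In that fit 35 of all 19241 genes passed and Fstl1 itself missed the threshold (limma, adjusted p 0.0606), so a count of 0 says little there. The share of all genes at that unadjusted p was not computed for it.

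**Figure D5:**
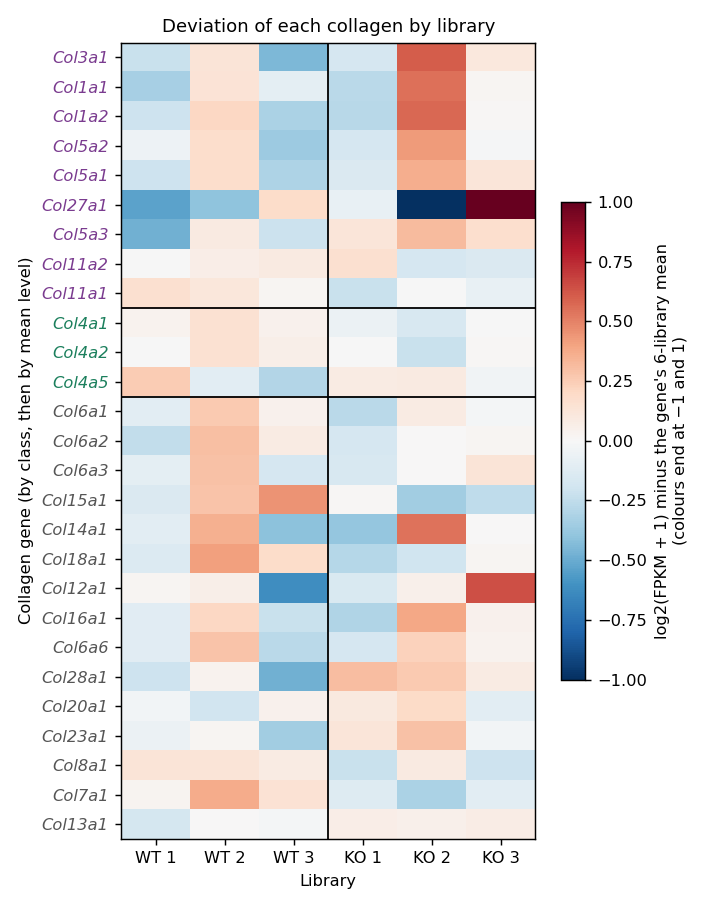
Each collagen's log2(FPKM + 1) less its own average across the 6 libraries, for the 27 collagens tested, in rows by class and columns by library. Most fibrillar chains are highest in KO replicate 2, where Col4a1 and Col4a2 are lowest, and type VI chains are highest in WT replicate 2.

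The genes that make, process, bind and accompany collagen were examined next. The 5 lists held 68 genes, of which 59 were tested, 36 with a fitted difference above 0 and 23 below, and 0 passed, where 2.21% of all genes tested did. At an unadjusted p under 0.05 there were 6 (10.2%, against 19.2%), and 8 had groups that did not overlap (13.6%, against 24.9%). Among 21 biosynthesis genes, which include the prolyl and lysyl hydroxylases and the collagen chaperone Serpinh1, 10 were below 0 and 11 above. Creb3l1, a transcription factor of secretory cells, had groups that overlapped (limma, log2 difference −0.33, SE 0.16, adjusted p 0.301), and the ion channel gene Tmem38b was at 11.3 to 14.8 FPKM in WT and 15.1 to 16.9 FPKM in KO (limma, 0.30, SE 0.15, adjusted p 0.305). Among 11 tested processing and crosslinking genes 9 lay above 0. The procollagen N-proteinase gene Adamts14 was at 0.83 to 1.22 FPKM in WT and 1.44 to 1.63 FPKM in KO (limma, 0.36, adjusted p 0.235), and the enhancer Pcolce2 overlapped (limma, 0.35, adjusted p 0.401).

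The discoidin domain receptors are tyrosine kinases that bind collagen, and both were among those 8 genes, in opposite directions. Ddr2, the receptor of mesenchymal cells, was at 9.52, 10.2 and 6.0 FPKM in WT, against 10.5, 12.5 and 13.5 FPKM for KO (limma, log2 difference 0.48, SE 0.20, adjusted p 0.239), and Ddr1, the receptor of epithelial cells, was at 1.95, 2.72 and 3.21 FPKM in WT, against 1.86, 1.82 and 1.5 FPKM for KO (limma, −0.40, SE 0.17, adjusted p 0.249). Of the basement membrane partners, Nid2, which links laminin to type IV collagen, was at 35.5, 46.4 and 42.5 FPKM in WT, against 25.4, 28.8 and 20.03 FPKM for KO, lower in each KO library, and came closest to the threshold of all 59 genes (limma, −0.73, SE 0.17, adjusted p 0.0674). Hspg2, perlecan, overlapped (limma, −0.28, adjusted p 0.412). Of the fibril partners, Prelp, a leucine-rich proteoglycan, was at 23.6, 42.8 and 32.0 FPKM in WT, against 23.3, 15.8 and 17.5 FPKM for KO, without overlap (limma, −0.74, SE 0.23, adjusted p 0.128), and Fn1, fibronectin, at 38.3, 56.4 and 36.5 FPKM in WT, against 54.5, 89.2 and 69.2 FPKM for KO, with overlap (limma, 0.69, SE 0.22, adjusted p 0.144).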

How the data were processed

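Bulk RNA-seq of the newborn interscapular depot was compared between 3 WT and 3 KO libraries, grouped by sample title. The deposited table holds FPKM values, per the file headers, rounded to 2 decimals. HISAT2 2.0.4, Bowtie2 2.2.5, DESeq2 and the build mm10 are named in the submitters' processing notes, without roles; the annotation, strand handling and the tool that computed FPKM are not given in the sources used here. FPKM are not counts, so log2(FPKM + 1) of genes averaging 0.5 FPKM or more was fitted with limma 3.58.1 in R 4.3.3 (eBayes with trend, no covariates), KO minus WT, with Benjamini-Hochberg adjustment over all 13331 genes at 0.05. Folds on this scale understate changes of low genes. Nothing says that libraries are separate animals, so p-values refer to these libraries only. In this fit the variance of each gene was drawn towards a trend over all 13331 genes. The SE, interval and p-value of a gene therefore do not rest on its own spread between libraries alone.

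Depth was estimated from steps in low values of short single-transcript genes. At the best of a range of depths, 78.4% to 82.1% of 492 to 530 values per library lay within 0.2 of a whole read. With lengths shuffled the share at that same depth was 37.7% to 44.6%. It was not maximized anew, so both shares are not on equal terms. The values were preselected by assuming a depth close to the estimates. The depth is an estimate from those genes only, whole reads were not derived for the table, and no count test was run. Sequences and positions are RefSeq's (GRCm38.p6). Protein sequences were not used here.

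The collagen classes, the lists and the rule for named genes were chosen with earlier results of these data known. Named were Fstl1, any collagen past the threshold, the 3 highest and the 3 with the smallest p in each class, partner chains, and the 2 with the smallest p in each pathway list; the other members were added after their values were seen. Marker lists covered fibroblast, endothelial, mural, brown adipocyte, cartilage, bone, tendon, skeletal muscle, epidermis and macrophage, and a further list is not reported here. Bone and tendon markers summed to at most 3.15 FPKM in any library, and macrophage markers to 31.2 to 47.5 FPKM in WT and 37.3 to 65.6 FPKM in KO.

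Same-numbered WT and KO libraries were checked for shared deviations, with correlations of 0.068, 0.043 and 0.043 across genes, and were not treated as pairs. Alternatives were the pseudocount, the filter, 3 scalings, 2 forms of eBayes, a replicate block and leaving out each library.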

Additional observations from a re-analysis of the deposited data

How the results depend on the processing

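The count of collagens past the threshold was 0 in all 16 alternatives, with limma's unadjusted p under 0.05 for 0 to 4 of them: 0 without WT replicate 3 and without KO replicate 2, 1 without KO replicate 3 and 1 with the filter at 5 FPKM, which tests 16 collagens. The number of all genes past it was 295 and ran from 31 to 370 when 1 library was left out (leaving out WT replicate 3 gave 31 and WT replicate 2 gave 39, while KO replicates 1, 2 and 3 gave 121, 89 and 87). It was 35 without the filter and 167 with the replicate block, where 0 collagens passed. The correlations of same-numbered libraries, taken over all genes tested and not over the collagens, did not show pairing. With the block limma's unadjusted p was 0.0693 for Col3a1, against 0.141 without it, and 0.350 for Col4a1, against 0.260. Class medians ran, for fibrillar collagens, from −0.012 to 0.379, basement membrane from −0.180 to −0.064 and other from −0.086 to 0.124 when 1 library was left out. Without the filter the basement membrane median was 0.010, because 3 genes near 0 FPKM enter. The ratios of class sums stayed on their side of 0 for fibrillar (0.086 to 0.476) and basement membrane (−0.184 to −0.094) collagens, and the other class ran from −0.201 to 0.017. All 27 collagens tested were recomputed one by one, the 10 outside the rule for named genes by choice after seeing the data. Those that changed sign were, without KO replicate 2 Col1a1 (−0.031), Col1a2 (−0.026), Col5a2 (−0.012), Col14a1 (−0.140), Col16a1 (−0.086) and Col6a6 (−0.035); without WT replicate 3 Col4a5 (−0.030), Col14a1 (−0.075), Col16a1 (−0.006) and Col6a6 (−0.054); without WT replicate 2 Col6a2 (0.035) and Col6a3 (0.124); without KO replicate 1 Col6a3 (0.058); with quantile normalization Col6a3 (0.00308); and without KO replicate 3 Col27a1 (−0.586). With 1 library left out, their log2 differences ran from −0.031 to 0.379 (Col1a1), −0.026 to 0.400 (Col1a2), −0.012 to 0.289 (Col5a2), −0.030 to 0.243 (Col4a5), −0.238 to 0.035 (Col6a2), −0.105 to 0.124 (Col6a3), −0.140 to 0.325 (Col14a1), −0.086 to 0.255 (Col16a1), −0.054 to 0.221 (Col6a6) and −0.586 to 1.43 (Col27a1). With pseudocounts of 0.1 and 0.01 the differences of low genes grew, to −0.93 and −1.12 for Col7a1, −0.46 and −0.53 for Col11a1, −0.52 and −0.59 for Col8a1, 0.33 and 0.39 for Col13a1 and 0.47 and 0.51 for Col23a1. The median of all genes lay between −0.016 and 0.035 throughout. Fstl1 missed the threshold without the filter (limma, adjusted p 0.0606; range over the alternatives 0.00192 to 0.0606). What underlies the remaining shifts was not tested.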
